A study of Mus musculus with 62 samples.

Results

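The livers of male *Fam13a* knockout (KO) and wild-type (WT) mice fed chow were compared by RNA-seq, in 4 libraries of each genotype. These 8 libraries were every library of the series whose labels gave liver as the tissue and chow as the diet, out of 62 libraries from liver, subcutaneous and visceral fat. The KO was constitutive and whole-body, made from embryonic stem cells in which exon 5 of *Fam13a* was flanked by LoxP sites. The WT livers were the controls, and genotype was the only labelled difference between the groups. Whether the WT mice were littermates of the KO mice is not given in the sources used here. All mice shared a C57BL6 background, whose substrain is not given in the sources used here, and neither is the age of the chow-fed mice at collection. The labels do not say which animal each library came from, so p-values measure the spread between these libraries.

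Human *FAM13A* encodes an intracellular protein that, by sequence homology, has a GTPase-activating domain, a fold that switches off small GTPases. The human gene lies in a locus associated with lung function, fasting insulin and the distribution of body fat, and its protein has been linked in lung epithelium to the turnover of beta-catenin and to fatty acid oxidation. The liver carries its own programmes for both: beta-catenin sets the identity of the hepatocytes around the central vein, and hepatocytes burn fatty acids, make bile acids and cholesterol, and secrete most plasma proteins, including the acute phase proteins that surge in inflammation.

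The floxed segment is shown because it defines the mutation. In the transcript Fam13a-201, exon 5 lies at chr6:58983889-58984075 (GRCm38, minus strand), is 187 bases long and coding throughout. It was read 5′ to 3′ from the annotated transcript and is printed in lower case with no part marked, since the whole exon is the segment of interest.
Fam13a exon 5: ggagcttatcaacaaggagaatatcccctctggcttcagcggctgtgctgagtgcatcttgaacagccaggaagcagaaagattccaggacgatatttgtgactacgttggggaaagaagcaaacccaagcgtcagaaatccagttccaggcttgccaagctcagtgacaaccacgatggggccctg
The exon makes up 3.23% of the 5786 bases of that transcript, and its length leaves a remainder of 1 when divided by 3. The deposited values are counts over whole genes, so they could not show whether this exon was missing, and the *Fam13a* count did not test the genotype labels. The study's exon numbering was not tied to a named transcript in the sources used here.

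The libraries differed in ribosomal RNA and depth. CT010467.1, an annotated ribosomal RNA copy, took 0.0127%, 0.0153%, 18.2% and 0.907% of all counts in WT 1 to WT 4, and 45.9%, 4.97%, 3.44% and 30.5% in KO 1 to KO 4. Every KO share was above 3 of the WT shares, and the difference of 5.71 in mean log2 share gave p = 0.0857 in an exact two-sided permutation test, whose smallest possible p here was 0.0286. WT 3 was above KO 2 and KO 3. Over all ribosomal RNA genes the mean share was 31.8% in WT and 46.3% in KO. The difference in mean log2 share was then 0.51, with the same exact permutation p of 0.0857. Counts outside CT010467.1 ran from 8355832 to 28718933 in WT and from 3741385 to 21372233 in KO (exact permutation p = 0.171). In a principal component analysis KO 1 stood apart on the first component, which held 36.9% of the variance, while the other 7 libraries overlapped by genotype. All 8 libraries came from 1 sequencing lane. Hepatocyte markers were abundant in all of them, with a summed level of 68390 to 90810 CPM (counts scaled to a common library size, with edgeR's TMM factors) in WT and 75840 to 82320 CPM in KO. Pancreatic, kidney and mesothelial markers were at or near 0, with at most 133 reads in a library for any such gene, *Cela1*, and at most 49 for any other. *Cela1* did not overlap, at 1.44 to 3.92 CPM in WT and 3.96 to 5.78 CPM in KO, as was so with KO above WT for 1.67% of all genes. The adipocyte gene *Adipoq* was at 4.10 TPM (counts scaled by gene length and library size) in KO 2 and at most 0.122 elsewhere. *Lep* was at 1.35 TPM in KO 2 and at most 0.0414 elsewhere.

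**Figure D1:**
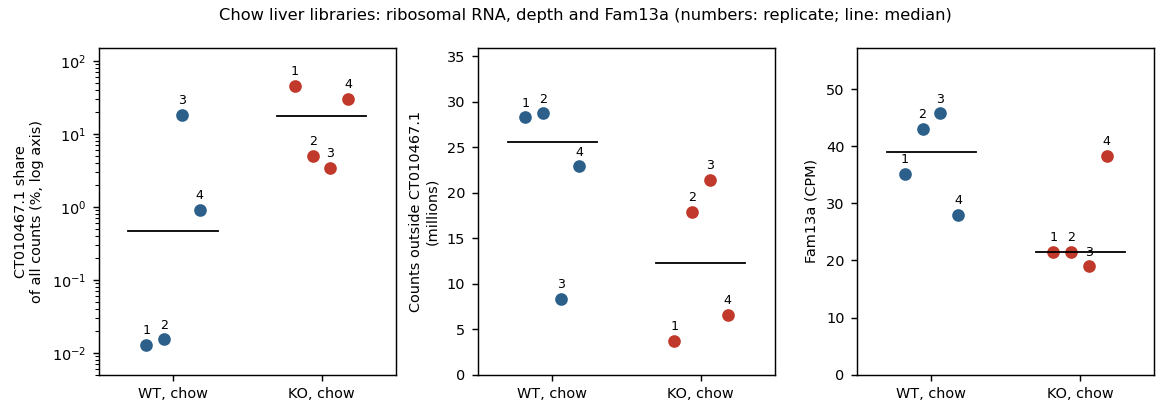
Share of counts from the ribosomal RNA copy CT010467.1 (%, log axis), counts outside it and *Fam13a* (CPM) in each chow liver library, with the replicate number beside each point and the group median as a line. KO 1 and KO 4 had CT010467.1 shares of 45.9% and 30.5%, WT 3 had 18.2%, and *Fam13a* in KO 4 was 38.3 CPM, inside the WT range.

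*Fam13a* transcripts from the whole gene (chr6:58932090-59024549) were measured at 35.1, 43.0, 45.7 and 28.0 CPM in WT 1 to WT 4 and at 21.4, 21.4, 19.0 and 38.3 CPM in KO 1 to KO 4. The libraries labelled KO 1, KO 2 and KO 3 lay below all WT libraries, and the library labelled KO 4 lay among them. The group levels were 38.0 ± 8.03 CPM in WT and 25.0 ± 8.91 CPM in KO (SD, n = 4 each). The fitted log2 fold change was -0.61 ± 0.22 (SE), with an unadjusted p of 0.0161 and an adjusted p of 0.813 in edgeR's quasi-likelihood test, and an exact permutation test of log2 CPM gave p = 0.0857. Without KO 4 the log2 fold change was -0.88, and without the 3 libraries whose CT010467.1 share exceeded 18% (KO 1, KO 4 and WT 3) it was -0.81. The gene Gm45061 overlaps *Fam13a* on the opposite strand, and the strand setting of the counting is not given in the sources used here. Its closest relative *Fam13b* was at 22.1 to 29.2 CPM in WT and 21.5 to 29.7 CPM in KO (log2 fold change -0.03 ± 0.13), and *Fam13c* did not pass the filter on low counts. Within 5 Mb on either side of *Fam13a*, 32 other genes were tested and none had an unadjusted p under 0.05 in edgeR's quasi-likelihood test or passed the false discovery rate (FDR) of 10%.

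No gene was differentially expressed (DE) between the genotypes on chow. Of 13407 genes tested, 0 (0%) passed an FDR of 10% in edgeR's quasi-likelihood test, where the smallest adjusted p was 0.236. At an unadjusted p under 0.05 there were 804 genes (6.0%), of which 371 (2.77%) were higher and 433 (3.23%) lower in KO. CPM ranges of the 4 KO and 4 WT libraries did not overlap for 473 genes (3.53%), with KO above WT for 224 (1.67%) and below for 249 (1.86%). The median log2 fold change over all genes was 0.00093. Other tools run on the same counts disagreed on the count: limma-voom called 0 genes, DESeq2 12 and edgeR's likelihood ratio test 15, and all of the genes these 2 tools called were among the 24 described next. Without the filter on low counts, the quasi-likelihood test called 20. Leaving out KO 4 raised the share of genes at an unadjusted p under 0.05 from 6.0% to 10.7% and called 0 genes.

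The 12 genes of smallest unadjusted p in each direction are given as values that did not pass the FDR. Their adjusted p in edgeR's quasi-likelihood test was 0.236 for Gm28438, 0.59 for *Serpine2*, 0.614 for *Ugt1a5* and 0.813 for the other 21. Of those with a fitted value higher in KO, 10 had non-overlapping ranges, the others being *Asic5* and the snoRNA Gm26397, and of those lower in KO 10 did, the others being *Epha2* and *Fbf1*. Because these genes were ranked by this contrast, their counts are a description.

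Among genes higher in KO, *Cyp7a1* (chr4:6265612-6275633), the rate-limiting enzyme of bile acid synthesis, was at 103, 169, 97.4 and 56.8 CPM in WT 1 to WT 4 and at 300, 181, 271 and 235 CPM in KO 1 to KO 4. Every KO library was above every WT library, and the log2 fold change was 1.21 ± 0.27. *Pltp*, the plasma phospholipid transfer protein, was at 19.6, 23.4, 14.9 and 14.5 CPM in WT and 32.8, 40.9, 29.4 and 25.6 CPM in KO, again without overlap (log2 fold change 0.82 ± 0.18). *Pltp* shares exon sequence with *Ctsa* on the opposite strand, so that its count is uncertain to that extent. *Serpine2*, a secreted serine protease inhibitor, was at 2.77, 3.98, 2.40 and 2.14 CPM in WT and 9.39, 7.58, 8.09 and 4.8 CPM in KO (log2 fold change 1.36 ± 0.24). All 3 of these genes were called by DESeq2, with adjusted p of 0.0115 for *Cyp7a1*, 0.0318 for *Pltp* and 0.000342 for *Serpine2*.

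Drug-conjugating and drug-oxidising enzymes also stood in this group. *Ugt1a5*, a glucuronosyltransferase, which adds glucuronic acid to its substrates for excretion, was at 6.20, 10.5, 5.67 and 5.09 CPM in WT and 24.1, 25.2, 15.2 and 12.7 CPM in KO, without overlap (log2 fold change 1.46 ± 0.26). As 64.0% of its 50-base stretches occur in other genes, mostly its *Ugt1a* relatives that share 3′ exons, reads could have been split between them. *Cyp2c38* was at 47.0, 51.1, 33.8 and 18.7 CPM in WT and 120, 115, 62.5 and 60.8 CPM in KO (log2 fold change 1.24 ± 0.31), and 7.45% of its 50-base stretches were shared with *Cyp2c39*, *Cyp2c37* or *Cyp2c29*. *Flt4*, the vascular endothelial growth factor receptor found on sinusoidal and lymphatic endothelium, was at 17.4 to 23.8 CPM in WT and 27.3 to 33.8 CPM in KO. *Cemip2*, a cell-surface hyaluronidase, was at 17.9 to 21.5 CPM in WT and 24.3 to 26.7 CPM in KO, and *Ccdc124*, a ribosome-associated protein, was at 3.79 to 5.05 CPM in WT and 6.12 to 7.10 CPM in KO. Gm16332, of which 37.8% of the 50-base stretches occur in other genes, was at 13.9 to 15.6 CPM in WT and 17.7 to 24.8 CPM in KO. *Asic5*, an ion channel that responds to bile acids, overlapped, at 6.92 to 9.63 CPM in WT and 9.36 to 22.3 CPM in KO.

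The gene of smallest p was a pseudogene. Gm28438 (chr1:24612775-24613119) is an unprocessed pseudogene of which 99.0% of the 50-base stretches occur in the mitochondrial gene *mt-Nd3*, a subunit of respiratory complex I. It was at 0.12, 0.147, 0 and 0 CPM in WT 1 to WT 4 and at 1.45, 1.08, 1.23 and 1.08 CPM in KO 1 to KO 4, KO 4 included, from 0 to 5 reads in WT and 6 to 28 in KO. Conversely *mt-Nd3* itself had 0 reads in all 4 KO libraries and 1 to 2 in each WT library. As the reads of these genes can scarcely be told apart, their values are uncertain one by one. The fitted log2 fold change of Gm28438 was 3.72 ± 0.54 and depends on how the zeros are treated.

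Among genes lower in KO, *Acpp*, an acid phosphatase, was at 7.59, 7.31, 10.6 and 11.8 CPM in WT and 3.37, 3.33, 4.71 and 6.0 CPM in KO, without overlap (log2 fold change -1.08 ± 0.22). *Epha2*, an ephrin receptor tyrosine kinase, was at 26.0 to 43.0 CPM in WT and 16.1 to 26.7 CPM in KO, and only KO 1 reached into the WT range. *Cadps2*, a factor of regulated vesicle release, was at 18 to 20.3 CPM in WT and 11.8 to 15.2 CPM in KO. *Fbf1*, a component of the base of cilia, was at 13.3, 17.1, 8.36 and 21.4 CPM in WT and 10.6, 7.19, 5.67 and 5.04 CPM in KO. *Cfap54*, also a ciliary gene, was at 2.88 to 4.15 CPM in WT and 1.76 to 2.64 CPM in KO. The remaining members, 4933406I18Rik, *Zfp941*, Gm15401 and Gm6658, were below 3 CPM in every library. *Saa1*, *Saa2* and *Orm2* complete the group and are given with the other acute phase genes.

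**Figure D2:**
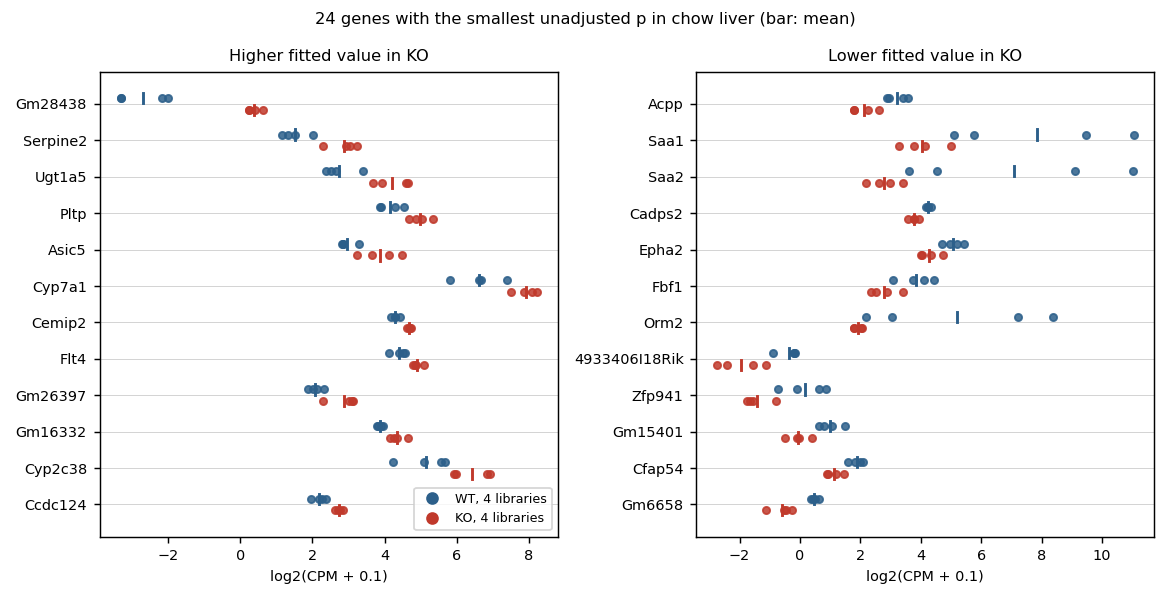
log2(CPM + 0.1) of the 24 genes with the smallest unadjusted p in chow liver, 12 higher (left) and 12 lower (right) in KO, with 1 point per library and the group mean as a bar. The WT points of *Saa1*, *Saa2* and *Orm2* are spread over several log2 units while the KO points lie close together, and for *Cyp7a1* the ranges were 56.8 to 169 CPM in WT and 181 to 300 CPM in KO.

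The largest differences were in acute phase genes, and they were carried by 2 WT libraries. Serum amyloid A1 (*Saa1*, chr7:46740497-46742980), a lipoprotein-borne protein that hepatocytes secrete in inflammation, was at 34.2, 54.5, 708 and 2108 CPM in WT 1 to WT 4 and at 13.5, 9.69, 31.6 and 17.6 CPM in KO 1 to KO 4. WT 3 and WT 4 were far above the other 6 libraries, and WT 1 and WT 2 were still above all KO libraries. *Saa2* was at 12.1, 23.3, 553 and 2080 CPM in WT and at 7.71, 4.45, 10.6 and 6.0 CPM in KO. *Orm2*, the secreted glycoprotein orosomucoid 2, was at 8.19, 4.42, 149 and 331 CPM in WT and at 3.37, 3.96, 4.0 and 3.36 CPM in KO. The log2 fold changes were -5.30 ± 1.14, -6.53 ± 1.41 and -5.02 ± 1.2. Without WT 3 and WT 4 they were -1.25, -1.29 and -0.75, with an adjusted p of 0.999 each in edgeR's quasi-likelihood test.

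Of 29 acute phase genes tested, 14 had an unadjusted p under 0.05 and a lower value in KO, and 0 a higher one, against 3.23% and 2.77% of all genes. The median log2 fold change was -0.59. In 18 of the 29 genes WT 3 and WT 4 were the 2 highest libraries of all 8, whereas WT 1 exceeded all KO libraries in 8 genes and WT 2 in 5. The list without WT 3 and WT 4 had a median of -0.07 and 3 genes at an unadjusted p under 0.05, namely *Saa1*, *Saa2* and *Orm2*. The iron-chelating *Lcn2* was at 1.72, 2.95, 45.2 and 511 CPM in WT and 1.20, 1.86, 9.63 and 2.88 CPM in KO, and its log2 fold change of -4.96 became 0.91 without those libraries. The heme carrier hemopexin (*Hpx*) was at 3451, 2025, 6212 and 8071 CPM in WT and between 1840 and 2983 CPM in KO, overlapping. Of 11 tested markers of neutrophils and blood cells, 3 were lower and 0 higher at an unadjusted p under 0.05, and their summed level was 149 to 406 CPM in WT, with WT 3 lowest, and 231 to 309 CPM in KO. The red cell gene *Slc4a1* did not overlap, at 1.5 to 3.60 CPM in WT and 0.241 to 1.27 CPM in KO, and the neutrophil gene *S100a9* was at 0.766 to 2.36 CPM in WT and 0 to 1.08 CPM in KO. *Ly6g*, which defines neutrophils, had 1 read in all 8 libraries together, and the part of such cells in the acute phase values was not tested.

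**Figure D3:**
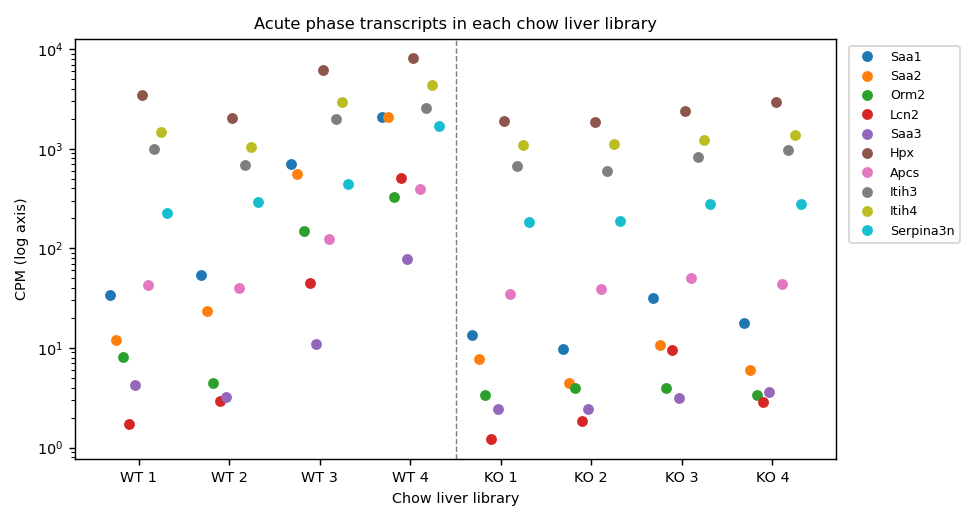
CPM (log axis) in each chow liver library of the 10 acute phase genes with the smallest unadjusted p. WT 3 and WT 4 carried the highest values, up to 2108 CPM for *Saa1* in WT 4, while *Saa1* was at most 31.6 CPM in the KO libraries.

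The promoters of *Saa1*, *Saa2* and *Orm2* are shown because these were the acute phase genes whose KO and WT ranges did not overlap. The 250 bases before the start of each gene were taken from RefSeq (GRCm38.p6), and matches on either strand to TTGCNNAA, a core of the C/EBP motif bound by factors that drive acute phase genes, are in capitals. The windows lie at chr7:46742981-46743230 (minus strand) for *Saa1*, chr7:46751583-46751832 (plus strand) for *Saa2* and chr4:63362199-63362448 (plus strand) for *Orm2*.
Saa1: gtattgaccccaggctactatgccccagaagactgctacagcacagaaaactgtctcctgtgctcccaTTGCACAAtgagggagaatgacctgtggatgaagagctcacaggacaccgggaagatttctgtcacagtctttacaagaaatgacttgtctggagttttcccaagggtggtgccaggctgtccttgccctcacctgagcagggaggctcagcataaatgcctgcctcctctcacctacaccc
Saa2: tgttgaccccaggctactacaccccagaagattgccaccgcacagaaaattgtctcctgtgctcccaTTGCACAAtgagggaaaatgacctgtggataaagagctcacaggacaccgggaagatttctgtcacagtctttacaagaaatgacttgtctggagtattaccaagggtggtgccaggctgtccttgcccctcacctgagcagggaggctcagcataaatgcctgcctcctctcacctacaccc
Orm2: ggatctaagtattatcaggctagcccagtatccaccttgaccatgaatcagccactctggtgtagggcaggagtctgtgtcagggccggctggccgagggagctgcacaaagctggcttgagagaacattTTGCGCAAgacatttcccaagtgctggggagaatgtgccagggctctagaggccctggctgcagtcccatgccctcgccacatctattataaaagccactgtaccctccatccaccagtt
Each window held 1 match, at bases -182 to -175 in *Saa1*, -183 to -176 in *Saa2* and -120 to -113 in *Orm2*, counted from the start. The same letters occur in 9.56% of 32851 promoter windows of this length. No match to TTCNNNGAA, a STAT motif found in 7.02% of windows, was present in these windows. The *Saa1* and *Saa2* windows were identical at 94.8% of aligned positions, and 31.5% of the 50-base stretches of *Saa1* transcripts occur in *Saa2* or *Saa3*, so that reads could have been split between them.

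Other secreted plasma proteins had smaller medians. Of 35 complement and coagulation genes tested, 4 had an unadjusted p under 0.05, all lower in KO, against 3.23% of all genes, and the median log2 fold change was -0.03. The fit without WT 3 and WT 4 had 0 of them at that p in edgeR's quasi-likelihood test. The list of 29 lipoprotein genes had 2 genes higher at an unadjusted p under 0.05, *Pltp* and *Apoc1*, against 2.77% of all genes, and a median of 0.09.

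Bile acid and sterol genes were examined next, as *Cyp7a1* ranked among the first genes. Of 29 tested genes of bile acid synthesis and transport, 2 were higher and 3 lower at an unadjusted p under 0.05, against 2.77% and 3.23% of all genes. The median log2 fold change was 0.05. *Cyp27a1*, which starts the acidic pathway of bile acid synthesis, was at 115 to 185 CPM in WT and 139 to 241 CPM in KO. *Cyp7b1*, the next enzyme of that pathway, was at 115, 183, 224 and 632 CPM in WT and 141, 76.8, 194 and 134 CPM in KO, and its log2 fold change of -1.08 was -0.13 without WT 3 and WT 4. The transporter *Slco1a4* was at 158 to 298 CPM in WT and 132 to 159 CPM in KO (log2 fold change -0.58 ± 0.17), and its log2 fold change was -0.30 without WT 3 and WT 4, with an unadjusted p of 0.0655 in edgeR's quasi-likelihood test. The order of the groups therefore differed from gene to gene in this list.

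For cholesterol synthesis, 20 of 25 tested genes had a positive log2 fold change, with a median of 0.19. At an unadjusted p under 0.05, 3 were higher and 0 lower, against 2.77% and 3.23% of all genes. *Hmgcs1*, which makes the precursor of mevalonate, was at 44.6, 62.1, 31.2 and 54.1 CPM in WT and 104, 100, 72.3 and 44.1 CPM in KO, with KO 4 among the WT libraries. *Tm7sf2*, a sterol reductase, was at 13 to 31.3 CPM in WT and 32.5 to 39.9 CPM in KO, without overlap. *Srebf2*, the transcription factor that drives this pathway, was at 10.4 to 12.1 CPM in WT and 12.1 to 14.1 CPM in KO, with a log2 fold change of 0.23 ± 0.11. In the fit without WT 3 and WT 4, 1 gene of the list was at an unadjusted p under 0.05, where 2.6% of all genes were.

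In fatty acid synthesis, *Scd1*, the desaturase that makes monounsaturated fatty acids, was at 2537, 3456, 1469 and 340 CPM in WT and 6484, 8319, 4446 and 3124 CPM in KO (log2 fold change 1.52 ± 0.53). Only WT 2 reached above the lowest KO library, KO 4. The malic enzyme *Me1*, which supplies NADPH to this pathway, was at 29.9 to 52.2 CPM in WT and 39.3 to 63.4 CPM in KO. These were the 2 of 22 tested lipogenesis genes at an unadjusted p under 0.05, and the median of the list was 0.08. Over all genes, 2.77% were higher and 3.23% lower at that p. The log2 fold change of *Scd1* was 0.90 without WT 3 and WT 4 and 2.35 with the CT010467.1 share as a covariate, and *Me1* had an unadjusted p of 0.109 in edgeR's quasi-likelihood test in the former fit. Of 36 genes of fatty acid oxidation and ketogenesis, 30 had positive log2 fold changes with a median of 0.14, and 1 was higher (*Acot1*) and 1 lower (*Cpt1a*) at an unadjusted p under 0.05. *Cpt1a*, the gate of mitochondrial fatty acid import, was at 705 to 941 CPM in WT and 575 to 748 CPM in KO. With the CT010467.1 share as a covariate, 16 genes of the oxidation list were higher at an unadjusted p under 0.05, where 5.46% of all genes were higher. That share was mostly higher in KO, so this fit cannot fully separate it from genotype. Without WT 3 and WT 4 the log2 fold changes of *Acot1* and *Cpt1a* were 0.36 and -0.15. Their unadjusted p was then 0.265 and 0.38 in edgeR's quasi-likelihood test. Of 21 lipid droplet genes, *Plin5*, which ties droplets to mitochondria, and *Hilpda*, an inhibitor of lipolysis, were lower without overlap, at 53.7 to 77.2 against 34.4 to 52.6 CPM and at 2.40 to 3.09 against 1.32 to 2.10 CPM, where 1.86% of all genes had KO below WT without overlap.

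Glucose and amino acid genes had more members lower than higher in KO. Of 24 genes of gluconeogenesis and glycogen, 4 were lower and 0 higher at an unadjusted p under 0.05, against 3.23% and 2.77% of all genes, with a median log2 fold change of -0.04. *Ppargc1a*, a coactivator induced by fasting, was at 18.2, 15.3, 28.8 and 31.3 CPM in WT and 7.95, 11.3, 11.9 and 18.9 CPM in KO (log2 fold change -0.87 ± 0.26), and the other 3 were *Gys2*, *Slc37a4* and *Fbp1*. Of 35 genes of the urea cycle and amino acid breakdown, 3 were lower and 0 higher at an unadjusted p under 0.05, against the same shares of all genes, and the median was -0.18. *Cth*, which turns cystathionine into cysteine, was at 800, 483, 1659 and 741 CPM in WT and 337, 360, 412 and 487 CPM in KO, where only WT 2 lay below the highest KO library, KO 4. Without WT 3 and WT 4 the medians of these lists were -0.01 and 0.00 and 0 and 1 of their genes were lower at an unadjusted p under 0.05 in edgeR's quasi-likelihood test, where 1.57% of all genes were. The 20 tested genes of the ATF4 stress response, of which *Cth* is also a member, had a median of -0.27, which was -0.05 without WT 3 and WT 4.

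The lobule of the liver is zoned, with different enzymes in hepatocytes near the portal tract and near the central vein, and the central programme depends on Wnt signals and beta-catenin. Of 23 tested pericentral markers, 22 had a positive log2 fold change, with a median of 0.41, and 7 were higher and 0 lower at an unadjusted p under 0.05, against 2.77% and 3.23% of all genes. Of 18 tested Wnt and beta-catenin targets, a list that shares genes such as *Axin2* and *Slc1a2* with the former, 17 were positive with a median of 0.37, and 4 were higher and 0 lower. Without WT 3 and WT 4 the medians were 0.28 and 0.30, with 3 genes higher in each list, where 1.03% of all genes were higher.

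Single libraries moved these counts. The pericentral sum was 6794, 9233, 4884 and 9780 CPM in WT 1 to WT 4 and 10980, 11500, 10780 and 5971 CPM in KO 1 to KO 4. KO 1 to KO 3 lay above every WT library, and KO 4 lay below WT 1. Without KO 4, 14 of the 23 pericentral genes were higher at an unadjusted p under 0.05, where 5.18% of all genes were higher. *Axin2*, a direct target and feedback inhibitor of beta-catenin, was at 5.21, 7.45, 4.52 and 6.21 CPM in WT and 8.19, 7.34, 8.62 and 7.32 CPM in KO (log2 fold change 0.41 ± 0.16), with WT 2 inside the KO range. *Glul*, glutamine synthetase of the innermost pericentral cells, was at 200, 444, 138 and 391.6 CPM in WT and 523, 565, 494 and 264 CPM in KO, with KO 4 among the WT libraries and an unadjusted p of 0.0784 in edgeR's quasi-likelihood test. *Apc*, a scaffold of the complex that degrades beta-catenin, did not overlap, at 49.9 to 59.1 CPM in WT and 59.2 to 67.4 CPM in KO.

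Periportal markers had the opposite sign. Of 24 tested, 18 had a negative log2 fold change, with a median of -0.31. At an unadjusted p under 0.05, 1 was higher and 1 lower, against 2.77% and 3.23% of all genes. Without WT 3 and WT 4 the median was -0.19 and no gene was under that p in edgeR's quasi-likelihood test. The periportal sum was lowest in WT 4, at 37640 CPM, and highest in WT 1, at 64160 CPM, and all KO libraries lay between them.

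Enzymes of drug metabolism, many of them pericentral, included more genes higher than lower in KO. Of 32 tested cytochrome P450 and related genes, 4 were higher and 0 lower at an unadjusted p under 0.05, against 2.77% and 3.23% of all genes. The median was 0.11. *Cyp2c29* was at 335, 482, 212 and 370 CPM in WT and 658, 643, 475 and 334 CPM in KO, with KO 4 inside the WT range. The 4 higher genes were *Cyp2c38*, *Cyp2c39*, *Ahr* and *Cyp2c29*. Without WT 3 and WT 4 their unadjusted p was 0.00874, 0.136, 0.149 and 0.1875 in edgeR's quasi-likelihood test. Of 38 phase II enzymes, which attach glutathione, sulfate or glucuronic acid, 7 were higher and 1 lower, against 2.77% and 3.23% of all genes, with a median of 0.17. The glutathione transferase *Gsta3* was at 337, 263, 137 and 182 CPM in WT and 516, 529, 390 and 244 CPM in KO, while *Gstm2* and *Ugt1a6a* did not overlap, as was so with KO above WT for 1.67% of all genes, at 8.17 to 9.38 against 9.48 to 13.8 CPM and at 7.86 to 9.80 against 11 to 11.8 CPM. *Ugt2b38* was the gene with a lower value, at 3.56 to 16.9 CPM in WT and 0.196 to 4.35 CPM in KO. The phase II list without WT 3 and WT 4 had 3 genes higher and 3 lower and a median of 0.06, where 1.03% of all genes were higher and 1.57% lower.

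**Figure D4:**
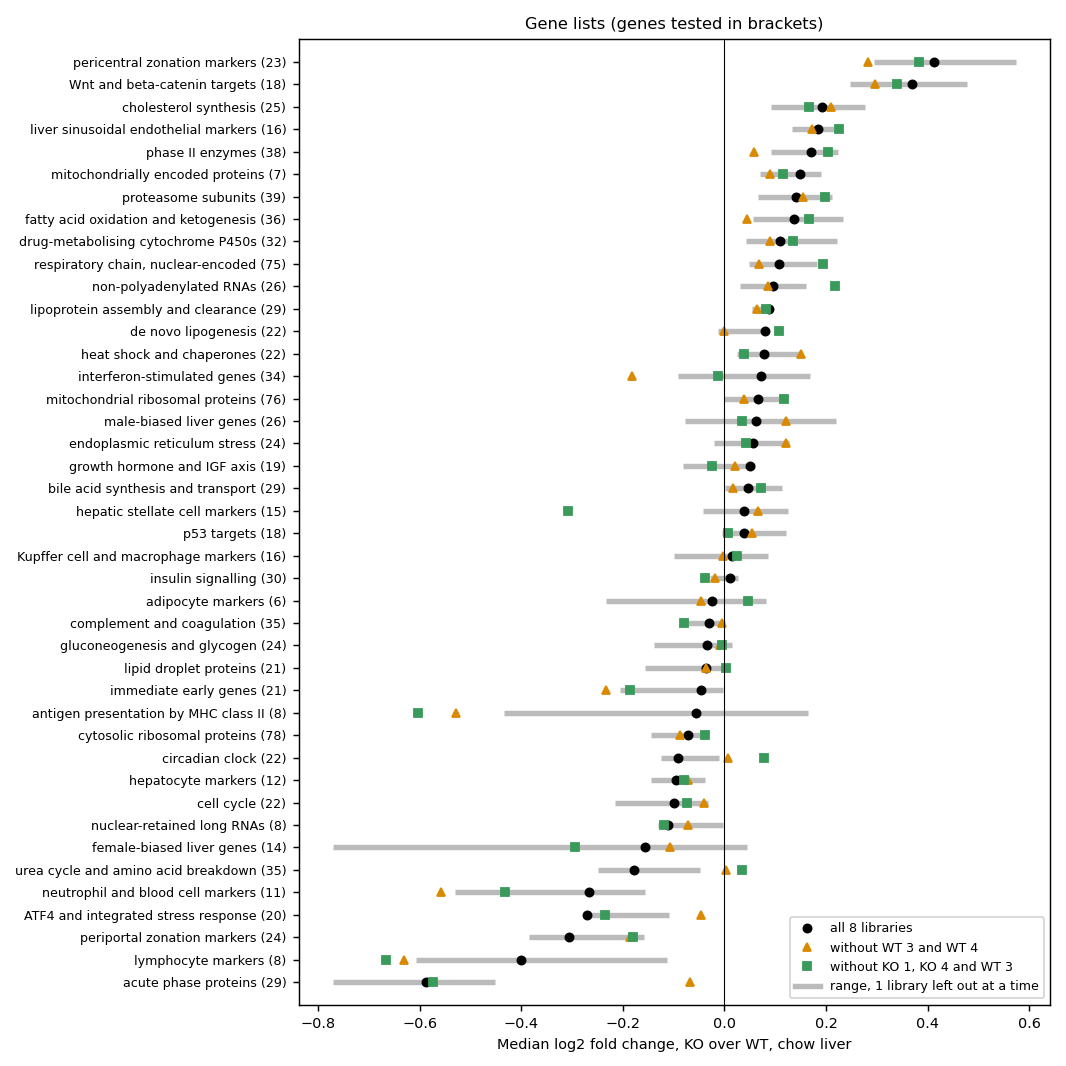
Median log2 fold change of KO over WT in chow liver for each gene list described with at least 5 genes tested (number in brackets): all 8 libraries (circles), without WT 3 and WT 4 (triangles), without KO 1, KO 4 and WT 3 (squares), and the range when 1 library was left out at a time (grey bars). The acute phase median was -0.59 with all libraries and -0.07 without those 2, whereas the pericentral median was 0.41 and 0.28.

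Mitochondrial genes showed small differences, more of them positive than negative. Of 75 nuclear-encoded respiratory chain genes, 63 had a positive and 12 a negative log2 fold change, with a median of 0.11, and 9 were higher and 0 lower at an unadjusted p under 0.05, against 2.77% and 3.23% of all genes. *Ndufb8*, a subunit of complex I, was at 16.3 to 18.6 CPM in WT and 20.7 to 22.6 CPM in KO, and *Cox4i1*, of complex IV, was at 112 to 133 CPM in WT and 126 to 153 CPM in KO. The fit without WT 3 and WT 4 had 1 gene of this list higher, where 1.03% of all genes were, and the fit without KO 1, KO 4 and WT 3 had 19, where 2.77% were. Mitochondrial ribosomal proteins had 53 positive and 23 negative values, with 3 of 76 higher and 0 lower and a median of 0.07, and the 7 tested mitochondrially encoded genes had a median of 0.15 with 0 at that p. Of 39 proteasome subunits 36 were positive, with a median of 0.14 and none under the unadjusted p in edgeR's quasi-likelihood test, and of 78 cytosolic ribosomal proteins 63 were negative, with a median of -0.07 and 1 lower, *Rpl3*.

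Hormone and sex-biased genes did not share a direction. Growth hormone pulses make many liver genes differ between the sexes. Of 26 tested male-biased genes 2 were higher and 2 lower at an unadjusted p under 0.05, while of 14 female-biased genes 0 were higher and 2 lower. Over all genes, 2.77% were higher and 3.23% lower at that p. *Bcl6*, a male-biased repressor of female-biased genes, was at 5.75, 5.92, 6.34 and 21.4 CPM in WT and 22.6, 16.2, 21.9 and 26.0 CPM in KO. WT 4 alone was inside the KO range. Its log2 fold change was 1.11 ± 0.39, and without WT 4 it was 1.85, with an adjusted p of 0.00225 in edgeR's quasi-likelihood test, the single gene called in that fit. As WT 4 was the library inside the KO range, leaving it out widened the difference. Without KO 1, KO 4 and WT 3 the log2 fold change of *Bcl6* was 0.80, with an unadjusted p of 0.162 in the same test. Its lowest value over all alternatives was 0.56. Of 19 genes of the growth hormone and IGF axis 3 were higher and 0 lower, against the same shares of all genes. The 3 were *Bcl6*, *Igf2r* and *Igfals*, with unadjusted p of 8.0e-07, 0.0639 and 0.34 without WT 3 and WT 4 in edgeR's quasi-likelihood test. In insulin signalling 1 of 30 genes was higher and 2 were lower, with a median of 0.01, and *Pdpk1*, the kinase that activates Akt, was at 59.4 to 66.0 CPM in WT and 49.6 to 57.7 CPM in KO. Clock genes had 1 of 22 higher, the repressor *Nfil3*, and 3 lower, with a median of -0.09.

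Stress and immune lists are given by their counts at an unadjusted p under 0.05, where 2.77% of all genes were higher and 3.23% lower. Heat shock genes had 2 of 22 higher, *Fkbp4* and *Hspb1*, endoplasmic reticulum stress genes 1 of 24 higher, p53 targets 1 of 18 lower and immediate early genes 3 of 21 lower. *Btg2*, an antiproliferative early gene, was at 20.8, 7.04, 31.1 and 9.66 CPM in WT and 3.85, 4.65, 5.98 and 11.6 CPM in KO, so that KO 4 exceeded WT 2 and WT 4. Interferon-stimulated genes (34 tested), MHC class II genes (8) and cell cycle genes (22) had 0 genes at that p in edgeR's quasi-likelihood test, with medians of 0.07, -0.06 and -0.10. The 26 tested non-polyadenylated RNAs, which bear on RNA selection, had 1 higher, and the 8 nuclear-retained long RNAs 0, with medians of 0.09 and -0.11.

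Markers of other liver cells were compared because whole tissue was sequenced, where fewer cells of a type and less RNA per cell cannot be told apart. Sinusoidal endothelial markers had 15 of 16 genes with a positive log2 fold change and a median of 0.18. At an unadjusted p under 0.05, 3 were higher and 0 lower, against 2.77% and 3.23% of all genes. These were *Pecam1*, *Wnt2* and *Eng*. Without WT 3 and WT 4 their unadjusted p was 0.0593, 0.0769 and 0.182 in edgeR's quasi-likelihood test, with log2 fold changes of 0.26, 0.83 and 0.23. The summed level of the list was 412, 410, 422 and 360 CPM in WT and 460, 446, 480 and 433 CPM in KO, without overlap. *Pecam1*, a junction protein of endothelium, was at 11.6 to 15.9 CPM in WT and 16.1 to 17.9 CPM in KO, and *Wnt2*, a ligand that central endothelial cells supply to hepatocytes, was at 0.577 to 3.06 CPM in WT and 2.46 to 5.58 CPM in KO. Of 16 Kupffer cell and macrophage markers 1 was higher, *Lyz2*, with an unadjusted p of 0.0893 without WT 3 and WT 4 in edgeR's quasi-likelihood test. The 15 stellate cell, 4 cholangiocyte, 8 lymphocyte and 6 adipocyte markers tested had 0 at an unadjusted p under 0.05 in edgeR's quasi-likelihood test, with medians of 0.04, -0.32, -0.40 and -0.03. Of 12 hepatocyte markers 1 was lower.

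The same genotype comparison on a high-fat diet (HFD) used 8 other male livers, sequenced on other lanes, so that it shares no library with the chow comparison. Diet cannot be told apart from lane, from age at collection or from other differences between the chow and HFD mice. Gm28438 had 6 to 28 reads in the chow KO livers and 0 to 3 in the HFD KO livers. In HFD KO 3, CT010467.1 held 75.4% of the counts, and 1219431 counts lay outside it. Of 14145 genes tested on HFD, 27 (0.191%) passed the FDR of 10% in edgeR's quasi-likelihood test, 9 (0.0636%) higher and 18 (0.127%) lower, and 1455 (10.3%) had an unadjusted p under 0.05, 4.58% of all genes being higher and 5.71% lower. Of the 24 genes listed for chow, *Fbf1* was among the 27, at 17.6 to 26.3 CPM in WT and 9.16 to 14.4 CPM in KO on HFD. Of 788 genes at an unadjusted p under 0.05 on chow that were also tested on HFD, 466 had the same sign there. Of all 13293 genes tested in both, 7241 had the same sign. For 94 of the 788 the sign was the same and the unadjusted p on HFD was also under 0.05. The matching count over all genes was not made, so the 94 are given without a background. *Fam13a* on HFD was at 25.7, 24.8, 19.7 and 20.1 CPM in WT and 17.3, 11.7, 11.1 and 11.6 CPM in KO, without overlap (log2 fold change -0.76 ± 0.15), with an adjusted p of 0.103 in edgeR's quasi-likelihood test. Its difference between the diets was 0.15 on the log2 scale, with an adjusted p of 0.975.

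The difference of the KO effects between chow and HFD was tested directly. Of 14476 genes, 0 (0%) passed the FDR of 10% in edgeR's quasi-likelihood test of the interaction, where 928 (6.41%) had an unadjusted p under 0.05, 3.12% of all genes with a higher and 3.29% with a lower value on chow, and DESeq2 called 24. The cholesterol list had a median of 0.19 on chow and of -0.39 on HFD. On HFD 13 of its 25 genes were lower at an unadjusted p under 0.05, against 5.71% of all genes. *Stard4*, a cytosolic sterol carrier, was at 12.6 to 21.1 CPM in WT and 18.5 to 26.5 CPM in KO on chow (log2 fold change 0.29 ± 0.16). On HFD its log2 fold change of KO over WT was -0.98 (adjusted p = 0.0185). The interaction gave an adjusted p of 0.241, both in the quasi-likelihood test. *Sqle*, squalene epoxidase, had a log2 fold change of KO over WT of 0.18 on chow and -2.75 on HFD. *Srebf2* had 0.23 and -0.57, and both genes had an interaction adjusted p of 0.252. *Cyp7a1* had 1.21 on chow and -0.21 on HFD, *Slco1a4* -0.58 and 0.99, and *Cyp4a12a*, a male-biased fatty acid hydroxylase, 0.59 and -1.25, with interaction adjusted p of 0.60, 0.252 and 0.275. The acute phase list had a median of 0.11 on HFD, and *Saa1* was at 15.7 to 47.7 CPM in the WT and 23.7 to 33.2 CPM in the KO livers there, with no WT library near the levels of chow WT 3 and WT 4. Interferon-stimulated genes, with a chow median of 0.07, had a median of -0.43 on HFD. There 25 of 34 were lower at an unadjusted p under 0.05, against 5.71% of all genes. Pericentral and periportal medians on HFD were 0.17 and 0.24.

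**Figure D5:**
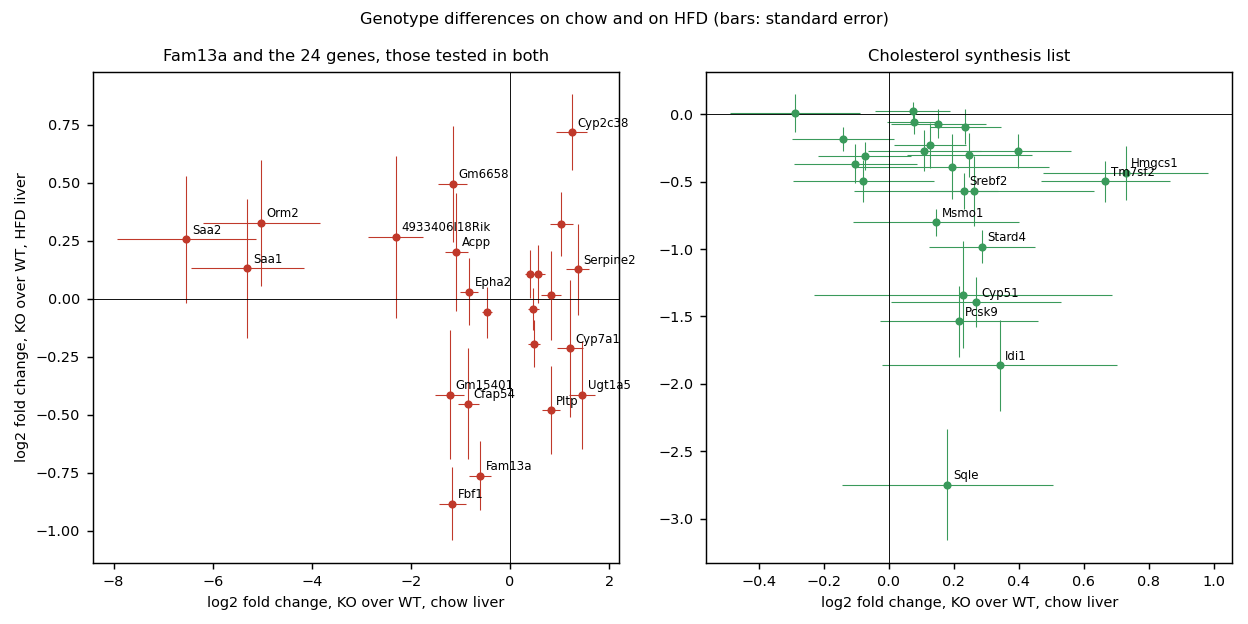
log2 fold change of KO over WT in chow liver (horizontal) and in HFD liver (vertical) for *Fam13a* and those of the 24 genes tested on both diets (left) and for the cholesterol synthesis list (right), with 1 point per gene and standard errors as bars. *Fam13a* had -0.61 and -0.76, *Cyp7a1* 1.21 and -0.21, and *Sqle* 0.18 and -2.75.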

How the data were processed

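RNA-seq libraries of male mouse liver were compared. The authors deposited raw read counts per gene, made with STAR 2.5.3a on mm10 per the submitters' processing notes, with GENCODE M11 annotation; the kit was stranded, and which strand setting was kept is not given in the sources used here. Gene symbols and positions came from GENCODE M21 (GRCm38). The members and gene lists were chosen with earlier results of these data known. Genes passing edgeR's filterByExpr were tested with edgeR 4.0.16 (R 4.3.3) by the quasi-likelihood test on TMM-scaled counts, with no covariate, Benjamini-Hochberg adjustment and an FDR of 10%. The SE is the log2 fold change divided by the square root of F. Tests were checked on simulated data. DESeq2 1.42.0, limma 3.58.1 and the other alternatives are given at the end. The named genes were *Fam13a* and its relatives, the 12 genes of smallest p in each direction, and the 4 members of smallest p in each of 46 lists; the 12 were ranked by unadjusted p because no gene passed the FDR. *Cox4i1*, *Gstm2*, *Hpx*, *Ugt1a6a*, *Glul*, *Ly6g*, *Stard4*, *Sqle*, *mt-Nd3*, *Wdfy1* and *Nnt* were added after their values were seen. A few genes and 1 list are not reported here. Total counts per chow library ran from 6917860 to 28723319, and low counts limit the precision of the shallower libraries. Promoters came from RefSeq (GRCm38.p6). Libraries of fat were used only for Gm28438, *mt-Nd3*, *Wdfy1* and *Nnt*.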

Additional observations from a re-analysis of the deposited data

Results flagged for a closer look

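Among 294 groups of 4 libraries looked at, 21 (7.14%) had a library whose gap to the nearest of the others exceeded Dixon's 95% critical share of the range, where chance gives about 1 in 20. Among single genes, KO 4 stood apart for *Acot1* (53.4 CPM against 124 to 133, gap 0.922 of the range), *Amdhd1* (146 against 88.2 to 89.6, 0.967), *Cyp4a12a* (162 against 188 to 190, 0.946), *Ier2* (2.88 against 1.93 to 2.06, 0.840) and *Rnd3* (10.8 against 14.4 to 14.7, 0.932). The KO 2 library stood apart for Gm26397 (4.8 CPM, 0.858) and KO 3 for *Ndufb8* (22.6 CPM, 0.847). In WT the libraries apart were WT 1 for *Asic5* (9.63 CPM, 0.897) and *Pck2* (1.99 CPM, 0.833), WT 2 for 4933406I18Rik (0.442 CPM, 0.954) and WT 4 for *Bcl6* (21.4 CPM against 5.75 to 6.34, 0.926).

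Among list sums, KO 4 was apart for pericentral markers (5970 CPM against 10800 to 11500, gap 0.901 of the range), Wnt and beta-catenin targets (4170 against 7170 to 7810, 0.864) and complement and coagulation genes (16600 against 14600 to 14800, 0.929). WT 3 was lowest for cytochrome P450s (7620 CPM, 0.841), phase II enzymes (5740 CPM, 0.839) and neutrophil and blood cell markers (149 CPM, 0.844). KO 1 was apart for neutrophil and blood cell markers (231 CPM, 0.886) and non-polyadenylated RNAs (2302 CPM, 0.871). The gap was 0.883 for p53 targets in KO 2 and 0.871 for cytosolic ribosomal proteins in WT 1.

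Gm28438, the pseudogene of smallest p in chow liver, was also counted in KO fat libraries, which no comparison above used. Its median count in KO was 74 in male chow subcutaneous fat (0 to 2 in WT), 37.5 in male chow visceral fat (1 to 2 in WT), 45.5 in female HFD subcutaneous fat (0 to 1 in WT) and 41 in female HFD visceral fat (1 to 2 in WT). *mt-Nd3*, with which it shares nearly all of its sequence, had 0 reads in all of these KO libraries. In male HFD liver and fat, Gm28438 had 0 to 4 reads in both genotypes.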

How the results depend on the processing

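The count of 0 DE genes on chow became 20 with genes of at least 1 count kept, 12 with DESeq2, 15 with edgeR's likelihood ratio test, 1 with all 16 liver libraries in 1 fit, 1 without WT 3 and WT 4 together (an alternative chosen after seeing the data), and 0 to 1 when 1 library was left out. The 27 DE genes on HFD became 164 with DESeq2, 16 with limma-voom, 10 at an FDR of 5%, and 6 to 207 leaving 1 library out. The 0 genes of the interaction became 24 with DESeq2 and 0 to 16 leaving 1 library out. The log2 difference of 5.71 in CT010467.1 share became 0.51 over all ribosomal RNA genes, with an exact permutation p of 0.0857 for both. Leaving 1 library out, the CT010467.1 difference was 4.30 to 7.79, with the highest value, and an exact permutation p of 0.0286, without WT 3. *Fam13b*, at -0.03, lay between -0.12 and 0.049 leaving 1 library out, with the sign reversed without KO 3 (0.044), WT 1 (0.049) or WT 3 (0.014), and *Lcn2*, at -4.96, became 0.91 without WT 3 and WT 4. The cause was not tested. Over all alternatives, 69 values for comparisons stayed the same and 22 moved, where counts of genes were called the same if equal or within 1.5 times. For named genes, 2203 values kept their direction and side of the threshold, and 47 passed it only in an alternative. Of list medians, 27 moved and 985 did not. The 804 genes at an unadjusted p under 0.05 moved by over 1.5 times in 5 alternatives, between 359 without WT 3 and WT 4 and 1487 with the CT010467.1 share as a covariate. *Fam13a* lay between -0.88 and -0.48 in every alternative, never past the FDR of 10%. No paired analysis was possible because the library labels give no replicate numbers shared between genotypes, and the numbers used here follow accession order. Depth outside ribosomal RNA was lowest in KO 1, at 3741385 counts, which limits what could be detected for low genes.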

Other observations

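*Wdfy1*, an endosomal adaptor chosen after its values were seen, had a median of 17.9 CPM in KO and 7.63 CPM in WT chow liver, with overlapping ranges of 6.38 to 21.1 and 6.10 to 16.3 CPM by plain library size. It passed the FDR of 10% on HFD, with an adjusted p of 0.0184 in edgeR's quasi-likelihood test, at 12.3 to 28.6 CPM in KO and 8.51 to 10.2 CPM in WT. *Nnt*, a mitochondrial transhydrogenase also chosen after its values were seen, was at 85.6 to 108 CPM in KO and 40.7 to 102 CPM in WT chow liver.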
